A study of Mus musculus with 7 samples.

Results

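The 31 genes described here serve the making of cholesterol, its control, and its entry, transport, storage and export. They were found by their symbols in the expression table, and each of the 31 had 1 row among the 55364 genes of that table. They are 19 enzymes of the synthesis pathway, 5 proteins that switch the pathway on or off, 2 receptors that take up cholesterol from lipoproteins, 3 proteins that carry cholesterol inside the cell, 1 exporter and 1 enzyme that stores cholesterol as its ester. They are not every gene of the pathway, and the others are described only where named or counted.

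The cells were mini-oocytes, oocyte-like cells that were induced in a flat culture from female mouse embryonic stem cells of a hybrid 129/C57BL6 background (parental line BVSC H18). No somatic cells were added to the culture. The 4F cells carried Nobox, Figla, Tbpl2 and Lhx8, and the 8F cells carried these 4 factors together with Stat3, Dynll1, Sub1 and Sohlh1. The paper states that the 8F line also carried an Npm2-mCherry reporter. The factors were fused to a domain that makes the protein unstable unless the small molecule Shield-1 is present, so every library is from a transgenic stem cell derivative and none is from an ovary. All groups shared a serum-containing StemPro-34 medium with stem cell factor and the ROCK inhibitor Y-27632 on laminin, and fresh medium lacked Shield-1 from day 12 on. RNA was measured in 2 libraries of 4F-mini-oocytes at day 7 (1000 cells per library), 3 libraries of 4F-mini-oocytes at day 21 (10 cells per library) and 2 libraries of 8F-mini-oocytes at day 21 (10 cells per library). Day, cell number and the withdrawal of Shield-1 cannot be told apart in comparisons of day 21 with day 7. In comparisons of 8F with 4F, the added factors cannot be told apart from other differences between the lines. Nothing in the labels says that the libraries of a group came from separate cultures, so p-values measure only the spread between these libraries.

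Cells build cholesterol from acetyl-CoA. The first steps make mevalonate, the next join isoprene units into farnesyl diphosphate, farnesyl units are then joined in pairs into squalene, and squalene is closed into lanosterol, which a series of enzymes turns into cholesterol. The transcription factor SREBP2, encoded by Srebf2, switches on these genes when sterol is low: the escort protein SCAP carries it from the endoplasmic reticulum to the Golgi, where it is cut, and the INSIG proteins hold SCAP back when sterol is high. Mouse oocytes in the ovary are known to make little cholesterol of their own and to obtain it from the surrounding cumulus cells.

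The promoters of 5 genes are shown because these genes carry the results below, namely an early enzyme that was higher at day 21, the master regulator, both genes whose level differed between 8F and 4F, and the exporter that was lower at day 21. Each runs 5′ to 3′ on the strand of its gene, from 250 bases before to 50 bases after the RefSeq start site (RefSeq, GRCm38.p6). Capitals mark matches on either strand to TCACNCCAC (the core of the sterol regulatory element, which SREBP binds), CCAAT (bound by NF-Y), GGGCGG (a GC box, bound by Sp1) and CACGTG (an E-box).
Hmgcs1 promoter, chr13:119690101-119690400, plus strand: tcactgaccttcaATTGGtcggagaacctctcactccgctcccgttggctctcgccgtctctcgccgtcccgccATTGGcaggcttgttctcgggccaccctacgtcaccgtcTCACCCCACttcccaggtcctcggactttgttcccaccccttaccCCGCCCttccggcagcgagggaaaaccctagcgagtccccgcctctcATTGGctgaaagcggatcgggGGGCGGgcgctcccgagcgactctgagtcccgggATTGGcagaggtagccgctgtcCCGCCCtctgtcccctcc
Srebf2 promoter, chr15:82147019-82147318, plus strand: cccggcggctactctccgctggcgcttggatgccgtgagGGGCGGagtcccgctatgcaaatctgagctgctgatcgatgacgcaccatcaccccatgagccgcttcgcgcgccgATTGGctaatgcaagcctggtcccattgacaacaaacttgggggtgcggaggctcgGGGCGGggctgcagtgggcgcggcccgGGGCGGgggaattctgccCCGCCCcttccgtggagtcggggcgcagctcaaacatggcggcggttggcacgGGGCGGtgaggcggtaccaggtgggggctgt
Insig1 promoter, chr5:28071162-28071461, plus strand: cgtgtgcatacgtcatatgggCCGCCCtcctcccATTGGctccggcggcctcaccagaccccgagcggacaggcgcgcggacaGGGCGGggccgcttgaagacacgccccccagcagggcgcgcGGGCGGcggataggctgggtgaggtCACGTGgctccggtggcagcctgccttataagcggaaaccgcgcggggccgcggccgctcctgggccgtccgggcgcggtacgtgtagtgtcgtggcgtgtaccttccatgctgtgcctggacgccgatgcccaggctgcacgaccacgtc
Idi1 promoter, chr13:8885356-8885655, plus strand: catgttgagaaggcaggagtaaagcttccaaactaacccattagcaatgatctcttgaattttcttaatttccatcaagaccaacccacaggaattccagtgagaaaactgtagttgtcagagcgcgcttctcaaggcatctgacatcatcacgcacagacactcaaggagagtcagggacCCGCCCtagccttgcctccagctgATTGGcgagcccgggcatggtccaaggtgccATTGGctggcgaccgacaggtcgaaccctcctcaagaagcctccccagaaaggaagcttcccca
Abca1 promoter, chr4:53159846-53160145, minus strand: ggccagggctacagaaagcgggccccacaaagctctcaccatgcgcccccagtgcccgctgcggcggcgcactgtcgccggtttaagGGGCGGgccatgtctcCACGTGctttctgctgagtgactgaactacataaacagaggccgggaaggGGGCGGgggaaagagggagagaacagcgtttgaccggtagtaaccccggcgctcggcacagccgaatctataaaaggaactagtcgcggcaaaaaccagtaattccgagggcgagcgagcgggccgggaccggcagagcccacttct

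The Hmgcs1 window held the sterol element, starting at position -137 from the start site, with 4 CCAAT and 3 GC box matches around it. Srebf2 held 5 GC boxes and 1 CCAAT, Insig1 held 3 GC boxes, 1 CCAAT and 1 E-box, and Idi1 held 2 CCAAT and 1 GC box. The Abca1 window held 2 GC boxes and 1 E-box, with no CCAAT. Promoters were found for 25 of the 31 genes, 35 windows in all, and none for Fdps, Fdft1, Sqle, Scarb1, Npc1 and Stard4. CCAAT was in 22 of the 35 windows (62.9%) and in 37.4% of all 32851 mouse promoters of this length. GC boxes were in 26 windows (74.3%) against 35.7%, E-boxes in 7 (20.0%) against 7.15%, and the sterol element in 1 (2.86%) against 1.24%. Windows of the same gene can overlap, and both Scap windows hold the same E-box. By gene, CCAAT was in 21 of the 25, GC boxes in 22, E-boxes in 6 and the sterol element in 1. No matches overlapped each other within a window. Only exact matches were counted, so sites that differ by a base are not marked. A match describes these letters and shows no binding.

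The values are TPM, a read count divided by exon length and set to a common total for each library. Levels may be compared between genes only roughly, because the length covers all annotated exons of a gene. It was 10787 bases for Lss and 4227 for Fdft1. The order of genes by level and their shares of a sum thus rest partly on the annotation. The libraries held between 9051761 and 17190271 reads on genes, and 3 reads on a gene of 1 kb were worth between 0.515 and 0.765 TPM. All 10 oocyte markers were at 10 TPM or more in every library, with a summed level of 5296 to 6165 TPM at day 7 and 21770 to 26593 TPM at day 21. Nobox and Figla are on this list and are also induced factors. The paper states that their values include both the transgenes and the endogenous genes. They were at 662 to 1255 TPM and at 320 to 816 TPM over the 7 libraries, and their presence was fixed by the induction. Of 11 granulosa and theca markers, 10 were under 5 TPM in every library and Inha was at 0 in all 7, with sums of 2.97 to 18.1 TPM. The sum of 7 trophoblast markers was 1123 to 1554 TPM at day 7, with the keratin Krt8 the highest of them (660 and 863 TPM), and 38.3 to 148 TPM at day 21; 3 of the 7 stayed under 5 TPM in every library. The sum of 6 proliferation markers was 284 and 336 TPM at day 7 and 740 to 776 TPM at day 21, and the highest single value in this list was Ccnb1 at 277 TPM. These RNA levels do not measure cell division, and the paper reports that proliferation soon stopped in the presence of Shield-1. The sum of 7 pluripotency markers was 61.1 and 81.9 TPM in 4F at day 7, 224 to 343 TPM in 4F at day 21 and 123 and 164 TPM in 8F. The sum of 7 endoderm markers was 1.57 and 3.11 TPM, 33.4 to 47.6 TPM and 89.9 and 96.6 TPM in the same order, nearly all of it Gata4, and 6 of the 7 stayed under 5 TPM in every library. Of the 7 pluripotency markers, Pou5f1 was the highest, at up to 267 TPM, and 3 stayed under 5 TPM in every library. Limma called 2 of the 5 tested higher from day 7 to day 21 in 4F and 1, Zfp42, lower (log2 -1.43). The sum of 6 steroidogenic markers lay between 15.4 and 27.2 TPM with no list member at 0 in every library. The part that these markers' cells or states have in the differences below was not tested. Because every library pools cells, fewer cells with a transcript and less of it per cell cannot be told apart.

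The transcripts of the pathway stood at very unequal levels. Squalene synthase, Fdft1 (ENSMUSG00000021273.11, chr14:63145150-63179578, minus strand), which joins farnesyl units into squalene, was the highest of the 31 genes in every group. Its mean was 252 ± 44.1 TPM (SD, n = 2) in 4F at day 7, 650 ± 21.3 TPM (n = 3) in 4F at day 21 and 778 ± 49.0 TPM (n = 2) in 8F at day 21. Insig1 and then Hmgcs1, the enzyme that makes HMG-CoA, came next in every group. Mvk, the mevalonate kinase, and Ebp, a sterol isomerase, were at the low end. Mvk was at 5.05 and 3.51 TPM in 4F at day 7, at 6.94, 0 and 1.16 TPM in 4F at day 21, and at 2.31 and 3.44 TPM in 8F. Ebp was at 3.86 and 0.415 TPM, at 0, 3.49 and 0.723 TPM, and at 1.56 and 1.76 TPM in the same order. A zero means that no read was counted and does not show that the transcript was absent. In those libraries 3 reads were worth 0.258 TPM for Mvk and 0.277 TPM for Ebp. The values of the other 4F libraries of day 21 lay above these floors. The group medians of the 31 means were 14.7 TPM in 4F at day 7, 16.9 TPM in 4F at day 21 and 23.0 TPM in 8F at day 21.

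**Figure D1:**
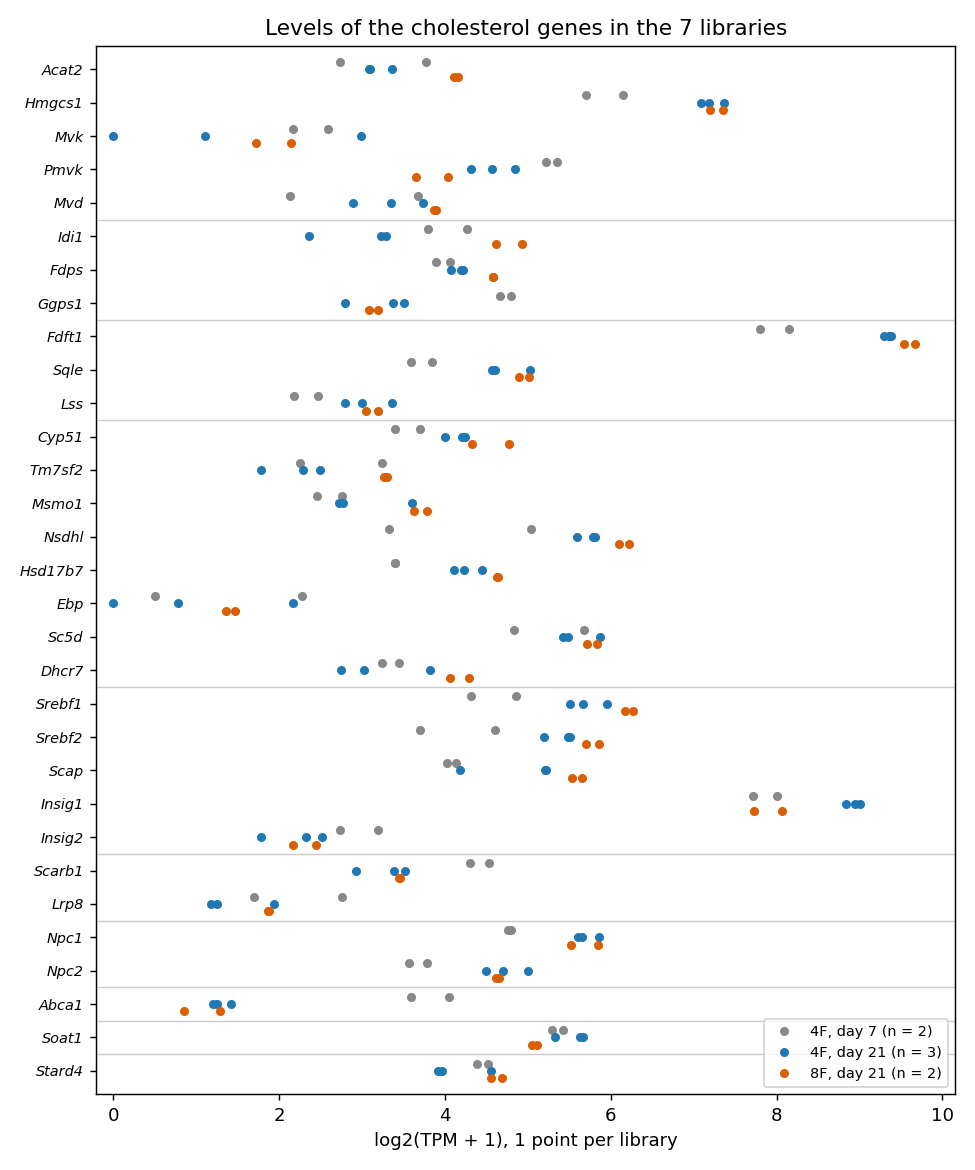
Level of each of the 31 genes in each of the 7 libraries, as log2(TPM + 1) on the horizontal axis; grey points are 4F at day 7, blue 4F at day 21 and orange 8F at day 21, and grey lines part the groups of genes by role. Fdft1 and Insig1 stand to the right of all others in each group, Hmgcs1 stands next to them at day 21, and Abca1, an exporter, lies far lower at day 21 than at day 7.

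The 19 synthesis enzymes together reached 485 and 607 TPM in 4F at day 7, 1090, 1029 and 1071 TPM in 4F at day 21, and 1314 and 1256 TPM in 8F at day 21. The 3 groups did not overlap. Fdft1 alone made up 45.6% and 46.7% of that sum at day 7 and 59.2% to 62.3% in the 5 day 21 libraries. Without it the other 18 enzymes summed to 264 and 324 TPM at day 7, 403 to 434 TPM in 4F at day 21 and 501 and 513 TPM in 8F, so the order of the groups did not rest on Fdft1. Hmgcs1 took between 10.6% and 15.1% of the sum in the 7 libraries. These sums describe the libraries and carry no test. TPM is a share of a library's total, and the 10 highest genes of each library took 28.5% and 31.8% of it at day 7. At day 21 they took 10.2% to 14.0%, which leaves more of the total to all other genes. The part of this in the sums was not tested.

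The first comparison asked what changed in 4F-mini-oocytes between day 7 and day 21. Of the 31 genes, 10 were higher at day 21 and 4 were lower, by limma on log2(TPM + 1) at an adjusted p under 0.05 over the 21780 genes tested; 17 did not pass. Higher were Hmgcs1, Fdft1, Sqle, Nsdhl, Hsd17b7, Srebf1, Srebf2, Insig1, Npc1 and Npc2, and lower were Pmvk, Ggps1, Scarb1 and Abca1. All 31 genes passed the filter of 1 TPM in 2 libraries. The share of all tested genes called higher was 25.3% (5516 genes) and the share called lower was 15.3% (3331 genes), so the counts of 10 and 4 among 31 are to be read against those. The median change of the 31 genes was 0.34 on the log2 scale, against 0.17 for all genes tested, and 18 of the 31 lay above the latter.

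In the mevalonate arm, Hmgcs1 rose and Pmvk, the phosphomevalonate kinase, fell. Hmgcs1 was at 51.2 and 70.1 TPM at day 7 and at 164, 135 and 145 TPM at day 21. The lowest day 21 library was far above the highest day 7 library. The log2 fold change was 1.29 (SE 0.163, limma adjusted p = 0.0013), and 557 exon bases of Hmgcs1 (12.1%) overlap the antisense transcript Gm48342, which cannot be separated from it because strand was not stated for the counting. Pmvk was at 36.1 and 39.7 TPM at day 7 and at 27.8, 18.9 and 22.7 TPM at day 21, again without overlap. Its log2 fold change was -0.70 (SE 0.222, limma adjusted p = 0.0434), a call that was lost on leaving out any of 6 of the 7 libraries, the exception being replicate 1 of 4F at day 21, with adjusted p between 0.0618 and 0.155. Within a library, the ratio of Hmgcs1 to Pmvk, which no rescaling of a whole library changes, was 1.42 and 1.77 at day 7 and 5.90, 7.13 and 6.39 at day 21. Acat2, which joins acetyl-CoA units and has the near copy Acat3 with which reads can be shared, ranged from 5.64 to 12.6 TPM over these 5 libraries. Mvd, the decarboxylase that ends the arm, ranged from 3.40 to 12.3 TPM.

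In the isoprenoid arm, Ggps1 fell and the genes on either side of it did not pass the test. Ggps1 makes geranylgeranyl diphosphate, which leads away from sterols towards protein prenylation. It was at 24.4 and 26.8 TPM at day 7 and at 9.36, 5.92 and 10.3 TPM at day 21, so the groups stood well apart. Its log2 fold change was -1.51 (SE 0.288, limma adjusted p = 0.00667). Idi1, the isopentenyl diphosphate isomerase, was at 12.9 and 18.3 TPM at day 7 and at 8.80, 4.14 and 8.37 TPM at day 21. The groups did not overlap, but the log2 difference of -1.07 (SE 0.359) missed the threshold at a limma adjusted p of 0.0531. Fdps, which makes farnesyl diphosphate, was at 15.6 and 13.8 TPM at day 7 and at 17.4, 17.6 and 15.8 TPM at day 21; 26.7% of its exon bases are shared with Gm43738 on the same strand.

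In the squalene arm, both the enzyme that makes squalene and the one that oxidises it rose. Fdft1 was at 221 and 284 TPM at day 7 and at 656, 626 and 667 TPM at day 21, with no overlap and little spread within day 21. Its log2 fold change was 1.37 (SE 0.129, limma adjusted p = 0.00041). Of its exon bases, 774 (18.3%) overlap those of Ctsb on the opposite strand, which ranged from 50.6 to 98.3 TPM. Sqle, the squalene epoxidase, was at 13.3 and 11.0 TPM and then at 22.7, 31.7 and 23.4 TPM. The change of Sqle was 1.02 (SE 0.210, limma adjusted p = 0.00895). Lss, which closes the ring to lanosterol, was at 4.55 and 3.55 TPM at day 7 and at 5.98, 7.03 and 9.30 TPM at day 21; its adjusted p was 0.126 by limma.

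Of the 8 enzymes that lead from lanosterol towards cholesterol, Nsdhl and Hsd17b7, which act in the removal of methyl groups from the sterol ring, were higher at day 21, and 6 did not pass. Hsd17b7 was at 9.59 and 9.57 TPM at day 7 and at 20.7, 16.2 and 17.7 TPM at day 21, with a log2 fold change of 0.86 (SE 0.193, limma adjusted p = 0.0128). Nsdhl (X-linked, chrX:72918557-72958514, plus strand) was at 9.02 and 31.9 TPM at day 7 and at 55.2, 54.1 and 47.5 TPM at day 21. The day 7 libraries of Nsdhl thus differed 3.53-fold from each other, and its log2 fold change of 1.55 (SE 0.451, limma adjusted p = 0.033) lost the call in 12 of 18 other settings; without replicate 1 of 4F at day 7 it was 0.69 and without replicate 2 it was 2.41. Msmo1, which acts in the same removal, was at 5.77 and 4.52 TPM at day 7 and at 5.59, 11.2 and 5.82 TPM at day 21, where the groups overlapped. Cyp51, the lanosterol demethylase, was at 9.52 and 12.0 TPM and then at 18.0, 15.1 and 17.5 TPM, without overlap, at a limma adjusted p of 0.079. Tm7sf2, Sc5d and Dhcr7, which act late in the pathway, ranged from 2.43 to 8.45 TPM, from 27.4 to 57.7 TPM and from 5.74 to 13.1 TPM over the 5 libraries, and their groups overlapped.

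Among the regulators, Srebf1, Srebf2 and Insig1 rose together. Srebf2 was at 23.3 and 12.0 TPM at day 7 and at 35.8, 44.0 and 44.6 TPM at day 21 (log2 fold change 1.25, SE 0.275, limma adjusted p = 0.0116). Srebf1, whose products favour fatty acid genes, was at 27.9 and 19.0 TPM and then at 60.8, 49.6 and 44.6 TPM (1.12, SE 0.208, limma adjusted p = 0.00592). The ratio of Srebf1 to Srebf2 lay between 1.00 and 1.70 in the 7 libraries with no order by group. Insig1, itself a target of SREBP, was at 209 and 256 TPM at day 7 and at 512, 491 and 456 TPM at day 21. Its log2 fold change was 1.07 (SE 0.145, limma adjusted p = 0.0017). Its relative Insig2 was at 5.65 and 8.16 TPM and then at 3.99, 2.45 and 4.74 TPM and did not pass (limma adjusted p = 0.178). The ratio of Insig1 to Insig2 was 37.0 and 31.3 at day 7 and 128, 200 and 96.4 at day 21. Scap was at 15.3 and 16.5 TPM at day 7 and at 36.4, 17.2 and 36.1 TPM at day 21; replicate 2 of day 21 stood with the day 7 libraries, and the adjusted p was 0.101 by limma.

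Genes of cholesterol movement went both ways. Npc1 and Npc2, which pass cholesterol out of lysosomes, were higher at day 21. Npc1 was at 26.9 and 26.0 TPM and then at 49.4, 47.8 and 56.8 TPM (log2 fold change 0.93, SE 0.153, limma adjusted p = 0.00375). Npc2 was at 12.8 and 10.8 TPM and then at 21.5, 30.9 and 24.9 TPM (1.05, SE 0.209, limma adjusted p = 0.00777). Scarb1, a receptor for high-density lipoprotein, fell from 18.7 and 22.1 TPM to 9.44, 10.5 and 6.59 TPM (-1.14, SE 0.269, limma adjusted p = 0.0153); without replicate 2 of 4F at day 7 its adjusted p was 0.0785. Abca1, which exports cholesterol to apolipoproteins, had the largest fitted change of the 31 genes. It was at 11.1 and 15.5 TPM at day 7 and at 1.38, 1.31 and 1.68 TPM at day 21, a log2 fold change of -2.53 (SE 0.381, limma adjusted p = 0.0026). Lrp8, a lipoprotein receptor, was at 2.25 and 5.78 TPM and then at 1.26, 2.83 and 1.39 TPM. Soat1, which esterifies cholesterol for storage, ranged from 38.1 to 49.9 TPM and Stard4, a soluble sterol carrier, from 14.1 to 22.5 TPM over the 5 libraries; neither passed.

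**Figure D2:**
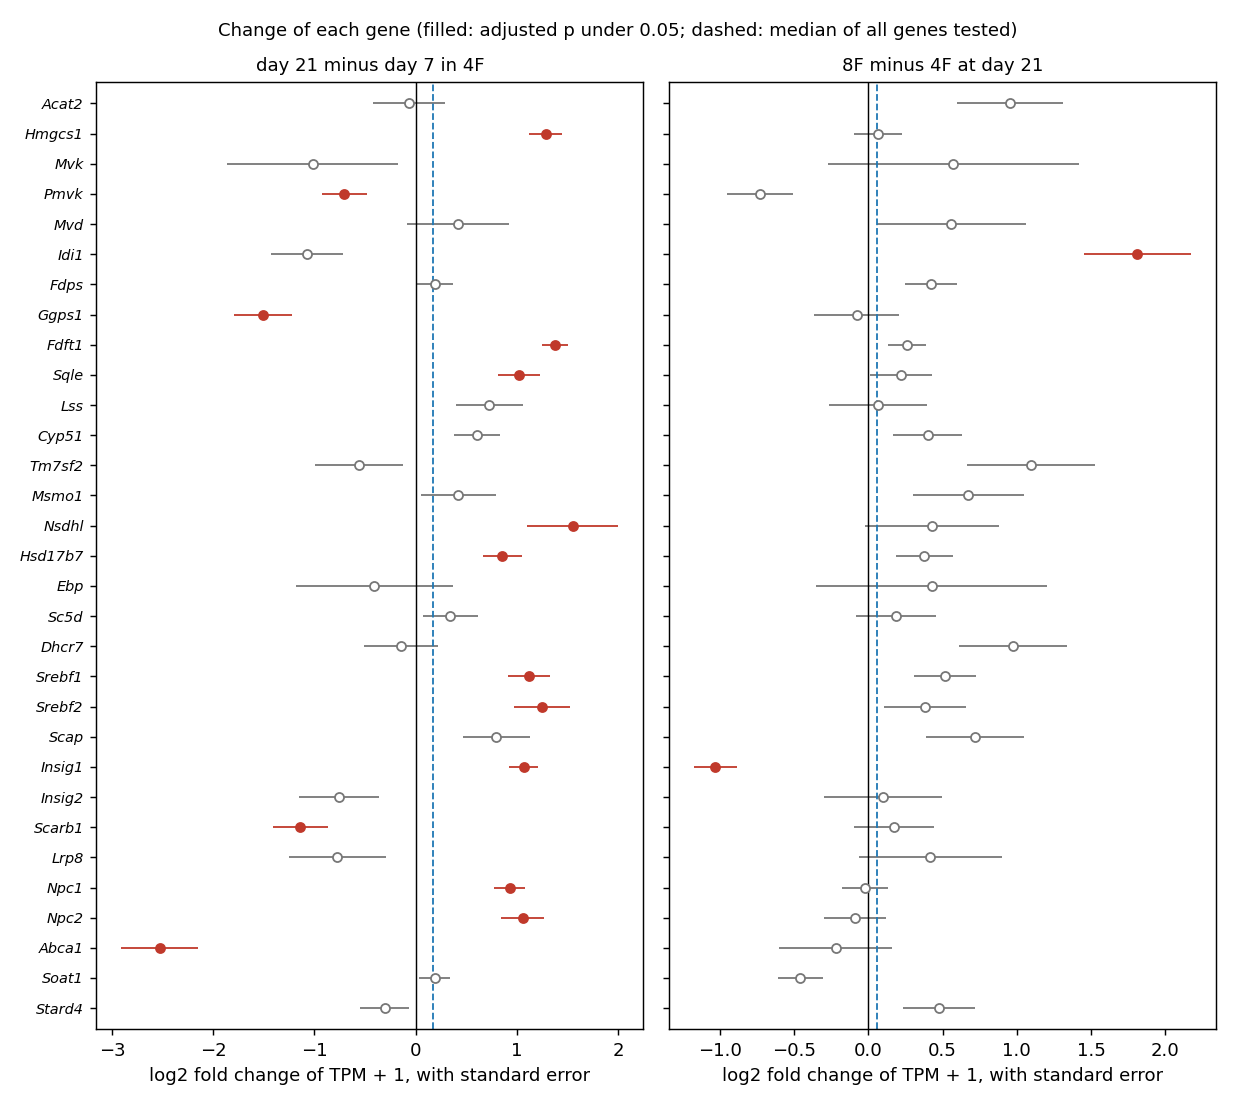
Log2 fold change of log2(TPM + 1) values for each of the 31 genes with its standard error, for day 21 minus day 7 in 4F on the left and for 8F minus 4F at day 21 on the right; filled red points have an adjusted p under 0.05 and the dashed line is the median of all genes tested. On the left 10 genes lie filled to the right and 4 to the left; on the right the filled genes are Idi1 (1.81) and Insig1 (-1.03).

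The direction of all 14 calls was kept under every alternative, but how many passed depended on scaling. The median of all genes was 0.17 as deposited, -0.32 in limma voom on reads recovered from the TPM, 0.04 with quantile normalization and -0.06 when libraries were rescaled by the median of ratios. The split of calls over all genes was 5516 higher and 3331 lower as deposited, 3349 and 5583 with voom, 4347 and 4008 with quantile normalization, and 4195 and 4437 with rescaling. Among the 31 genes the matching splits were 10 and 4, 5 and 8, 9 and 5, and 8 and 5. With voom the genes called higher were Hmgcs1, Fdft1, Srebf1, Srebf2 and Insig1. The median of the 31 genes above that of all genes was 0.17, 0.08, -0.03 and 0.07 in the same order. Hmgcs1, Fdft1, Ggps1, Srebf1, Insig1 and Abca1 kept their call in all 18 other settings.

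**Figure D3:**
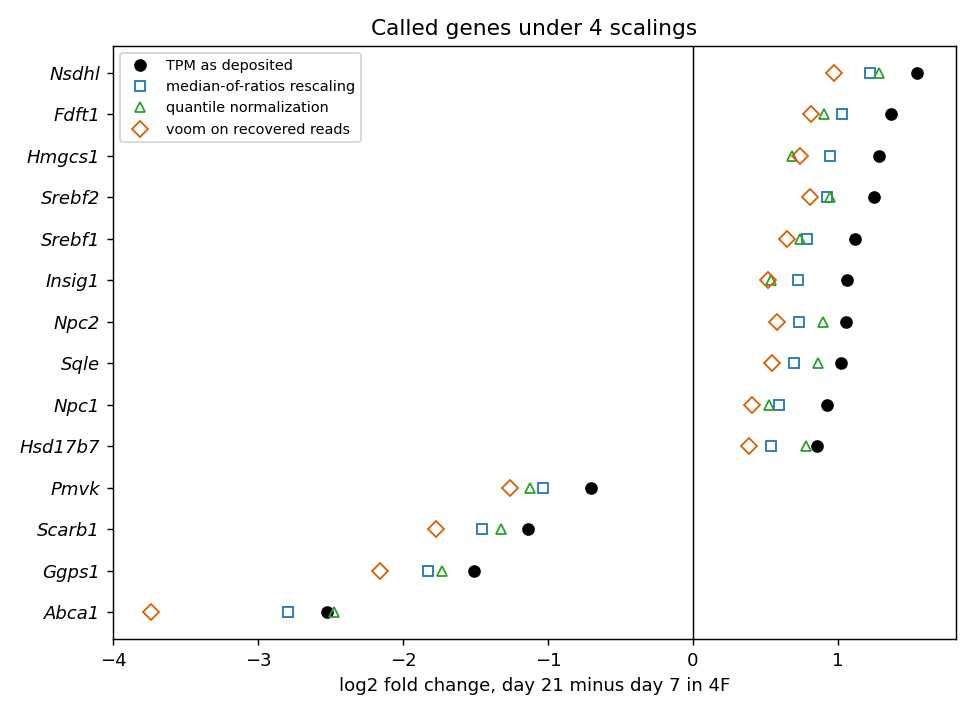
Log2 fold change of the 14 called genes from day 7 to day 21 in 4F (horizontal axis) under the deposited TPM, voom on recovered reads, quantile normalization and rescaling by the median of ratios. The 10 higher genes stay right of 0 and the 4 lower genes left of 0 under each; for Hmgcs1 the values run from 1.29 as deposited down to 0.69.

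The second comparison asked how 8F-mini-oocytes differed from 4F-mini-oocytes at day 21, with 2 and 3 libraries of 10 cells each. More genes were above 0 TPM in 8F (26563 and 26750) than in 4F at day 21 (21293 to 22316). The part of this in the differences below was not tested. Idi1 was higher and Insig1 lower in 8F, and 29 of the 31 genes did not pass, which does not show that they were equal. The endoderm marker Gata4 was also called higher in 8F (log2 1.17, SE 0.258, limma adjusted p = 0.0423). Of the 10 oocyte markers, 3 were called lower, among them the induced factor Figla, and 1 was called higher. The part of these markers in the values below was not tested. Over all genes 3.95% (861) were called higher and 4.41% (961) lower, so 1 of 31 in each direction is close to the background. The median difference of the 31 genes was 0.38, against 0.06 for all genes, and 24 of the 31 lay above the latter.

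Idi1 was at 8.80, 4.14 and 8.37 TPM in 4F and at 29.5 and 23.4 TPM in 8F. Both 8F libraries were far above every 4F library, and also above both 4F libraries of day 7. The log2 fold change was 1.81 (SE 0.359, limma adjusted p = 0.0317). Of its exon bases 9.22% overlap Gm48574 on the opposite strand, which was at most 3.47 TPM. Insig1 was at 512, 491 and 456 TPM in 4F and at 267 and 211 TPM in 8F, so that 8F stood at the level of the day 7 libraries (209 and 256 TPM). Its log2 fold change was -1.03 (SE 0.145, limma adjusted p = 0.0124). The call for Insig1 was lost without either 8F library (adjusted p = 0.066 without replicate 1 and 0.115 without replicate 2), and that for Idi1 was lost without either 8F library (0.315 and 0.194) and without replicate 1 or 3 of 4F at day 21 (0.0541 and 0.0572). The direction of both was kept in all 18 other settings.

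**Figure D4:**
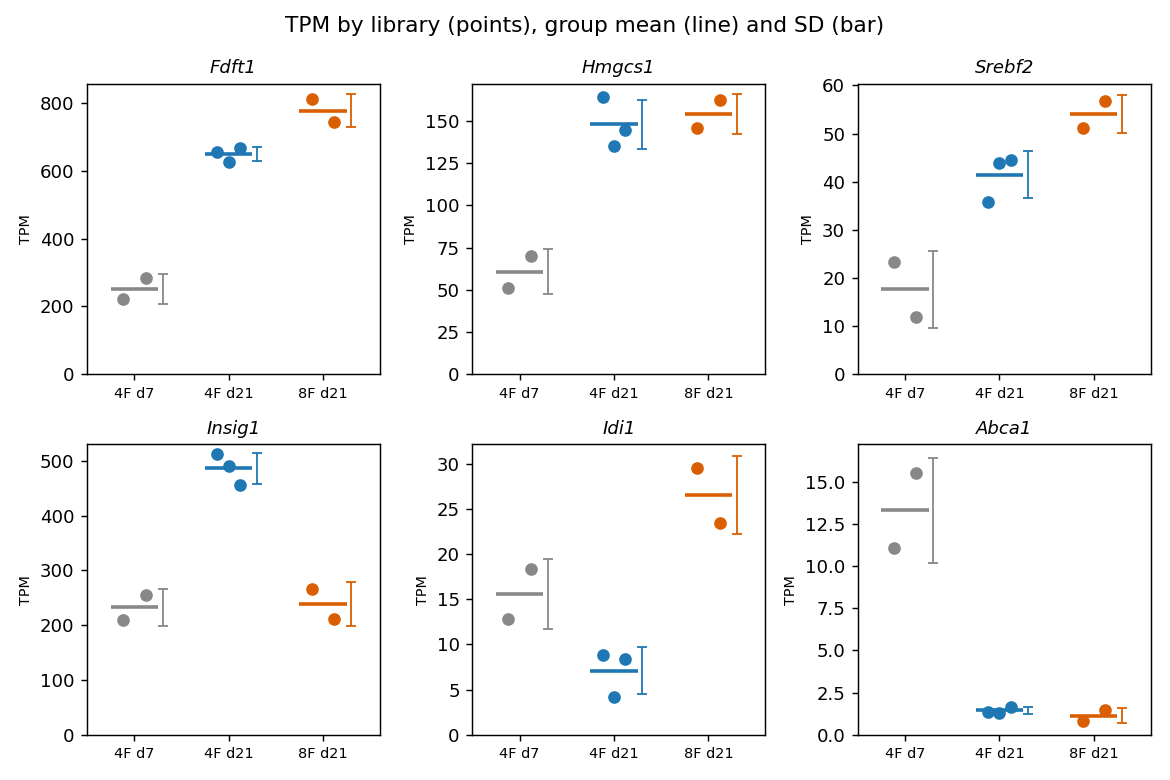
TPM of 6 genes by library (points), with the group mean (line) and SD (bar) for 4F at day 7 (n = 2), 4F at day 21 (n = 3) and 8F at day 21 (n = 2); every vertical axis starts at 0. Insig1 is highest in 4F at day 21, Idi1 is lowest there, Abca1 is low in all day 21 libraries, and Fdft1, Hmgcs1 and Srebf2 are higher at day 21 than at day 7.

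Set against Fdft1 and Scap, Insig1 was lowest in 8F, but set against Insig2 it was lowest in 4F at day 7 (76.1 and 47.5 in 8F). The ratio of Insig1 to Fdft1 was 0.945 and 0.902 in 4F at day 7, 0.780, 0.784 and 0.684 in 4F at day 21, and 0.329 and 0.283 in 8F. The ratio of Insig1 to Scap was between 12.6 and 28.5 in the 5 4F libraries and 5.91 and 4.26 in 8F. Srebf2 was at 51.2 and 56.8 TPM in 8F and at 35.8 to 44.6 TPM in 4F at day 21, and Srebf1 at 71.2 and 76.2 TPM against 44.6 to 60.8 TPM. In neither did the groups overlap, but neither passed (limma adjusted p = 0.498 and 0.21). Scap was at 45.2 and 49.4 TPM in 8F against 17.2 to 36.4 TPM (limma adjusted p = 0.269), and Insig2 was at 3.51 and 4.43 TPM, within the 4F range.

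Most other synthesis enzymes had higher values in 8F, none of which passed the threshold. Dhcr7, which reduces 7-dehydrocholesterol to cholesterol, was at 18.6 and 15.7 TPM against 7.15, 5.74 and 13.1 TPM (log2 0.98, SE 0.364, limma adjusted p = 0.177). Tm7sf2, a sterol reductase, was at 8.89 and 8.64 TPM against 4.65, 2.43 and 3.90 TPM, and Acat2 at 16.3 and 16.9 TPM against 9.28, 7.57 and 7.47 TPM (limma adjusted p = 0.199 and 0.175). In each of these the 8F libraries lay above all 4F libraries of day 21. Of the exon bases of Tm7sf2, 532 (12.1%) are shared with Vps51 on the same strand, which ranged from 5.32 to 12.8 TPM. Fdps was at 23.0 TPM in both 8F libraries against 15.8 to 17.6 TPM, Msmo1 at 12.8 and 11.3 TPM against 5.59 to 11.2 TPM, and Mvd at 13.7 and 13.9 TPM against 6.43 to 12.3 TPM. Hmgcs1 overlapped between the groups, at 146 and 163 TPM in 8F. Pmvk went the other way, at 11.6 and 15.4 TPM in 8F against 18.9 to 27.8 TPM (-0.73, SE 0.222, limma adjusted p = 0.107), and the ratio of Hmgcs1 to Pmvk was 12.6 and 10.6 in 8F. Higher values in 8F, like those of Dhcr7, were seen for Fdft1, at 812 and 743 TPM in 8F against 626 to 667 TPM, for Cyp51, at 19.1 and 26.4 TPM against 15.1 to 18.0 TPM, for Hsd17b7, at 23.7 and 24.0 TPM against 16.2 to 20.7 TPM, and for Nsdhl, at 73.7 and 67.4 TPM against 47.5 to 55.2 TPM. Each of the 4 had both 8F libraries above the 4F libraries of day 21 and an adjusted p above the threshold. The share of all genes whose 8F and 4F libraries part in this way was not counted, so such separations are descriptions only. Ggps1, Lss, Sqle, Npc1, Npc2 and Scarb1 had fitted folds of at most 1.16 (Sqle) between the groups. Sc5d, at 56.3 and 51.7 TPM, and Lrp8, at 2.68 and 2.65 TPM, lay within the 4F range, and Stard4 was at 24.8 and 22.5 TPM beside 14.1 to 22.5 TPM. Soat1 was at 33.7 and 32.2 TPM in 8F, under the 39.3 to 49.9 TPM of 4F at day 21 (limma adjusted p = 0.133), and Abca1 stayed low at 0.811 and 1.45 TPM.

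The call in this comparison moved with the settings more than in the first. With limma voom, Idi1, Fdft1, Dhcr7 and Srebf1 were called higher and Insig1 lower, but in that fit the median of all genes was 0.27, and the split over all genes turned from 861 higher and 961 lower to 1423 higher and 842 lower. Relative to the median of all genes, the voom difference of Fdft1 was 0.14 and that of Idi1 1.83.

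Against 4F at day 7, 8F at day 21 showed 12 of the 31 genes higher and 4 lower, where 24.2% of all genes were called higher and 13% lower. With voom the split was 9 and 5, with quantile normalization 10 and 6, and with rescaling by the median of ratios 9 and 5. Over all genes the matching splits were 3896 higher and 4311 lower, 4148 and 3974, and 4107 and 3868. This comparison shares its day 7 libraries with the first and its 8F libraries with the second, so it is no independent evidence. Fdft1 was higher by 1.63 on the log2 scale (SE 0.141, limma adjusted p = 0.000445) and Abca1 lower, at -2.74 (SE 0.417, limma adjusted p = 0.0033). Scap passed here, at 1.51 (SE 0.361, limma adjusted p = 0.0179), as did Cyp51, at 1.00 (SE 0.253, limma adjusted p = 0.0214). Of the exon bases of Scap, 985 (13.2%) overlap 5830462I19Rik on the opposite strand, which ranged from 7.83 to 28.1 TPM. The call for Scap was lost without either day 7 library or either 8F library (adjusted p from 0.0523 to 0.0975), and that for Cyp51 was lost without replicate 1 of 4F at day 7 (0.0817) and without either 8F library (0.0583 and 0.179). Fdps was barely past the threshold, at 0.61 (SE 0.193, limma adjusted p = 0.047), and lost the call in 14 of 18 other settings, with each of the 7 libraries left out among them (adjusted p from 0.0513 to 0.225). Insig1 did not, with 267 and 211 TPM in 8F beside 209 and 256 TPM in 4F at day 7. Without replicate 2 of 8F, the median log2 change of the 31 genes was 0.75, against 0.21 for all genes. Without replicate 1 of 8F it was 0.72, against 0.21.

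A wider list of 48 genes around the pathway was counted for context, of which 46 passed the filter. From day 7 to day 21 in 4F, 12 of the 46 were higher and 6 lower, near the shares of 25.3% and 15.3% over all genes. Lbr, a nuclear envelope protein that is also a sterol reductase, rose from 30.8 and 40.4 TPM to 158, 140 and 141 TPM (log2 fold change 2.02, SE 0.146, limma adjusted p = 0.000168), while Tm7sf2, which catalyses the same step, did not pass. Gramd1c and Gramd1a, which move cholesterol from the plasma membrane to the endoplasmic reticulum, had the largest falls. Gramd1c was at 19.0 and 26.2 TPM and then at 2.42, 0.734 and 0 TPM (-3.69, SE 0.570, limma adjusted p = 0.00287), and Gramd1a at 9.63 and 3.95 TPM and then at 0, 1.27 and 0 TPM (-2.46, SE 0.543, limma adjusted p = 0.0117). With rescaling by the median of ratios the split was 9 higher and 9 lower, and with voom 7 and 16. Over all genes the matching splits were 4195 and 4437, and 3349 and 5583. Between 8F and 4F at day 21 limma called 0 of the 46, with 10 at an unadjusted p under 0.05, and voom called 8 higher and 1 lower. Over all 21780 genes limma called 861 higher and 961 lower, with 4858 at an unadjusted p under 0.05. With voom the split over all genes was 1423 higher and 842 lower.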

How the data were processed

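RNA of 7 mini-oocyte libraries was measured by RNA-seq with the SMART-seq Stranded Kit. For the deposited TPM, the authors used Trim Galore for trimming, Hisat2 for alignment to mm10, bedtools to take out rRNA, and featureCounts on GENCODE vM25 for uniquely mapped reads, split into fractions where genes overlap. Sequencing used either of 2 NovaSeq instruments with different read lengths, and the libraries on each are not named in the sources used here. Unique mapping lowers genes with near copies, and overlapping genes share reads.

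Groups came from the labels. TPM was not counts, so a linear model with a moderated variance trend (limma 3.58.1, R 4.3.3) was fitted to log2(TPM + 1) for the 21780 of 55364 genes at 1 TPM or more in 2 libraries, with all 7 libraries and 3 groups in 1 fit, and p-values were adjusted by Benjamini-Hochberg over all genes tested (threshold 0.05). A fold change on this scale understates the change of low genes. The code was tested on simulated data with known answers for direction and size. Its power between 8F and 4F was very low there for differences of 1 log2 unit and incomplete for differences of 2 log2 units. Reads per gene were recovered from the TPM and exon lengths of a GENCODE annotation of the same build: of the low values, 80.2% to 85.0% came out whole within 0.02 reads, and 29 of the 31 genes matched with the version of their identifier (Fdft1 and Lrp8 without it). The floor of 3 reads covers counting error only. Alternatives were leaving out each library, fitting only the groups compared, voom on the recovered reads, a replicate block, array weights, no variance trend, quantile normalization, rescaling by the median of ratios, pseudocounts of 0.1 and 5, and a filter of 5 TPM or none.

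The 31 genes, the lists and the tests were chosen with earlier results of these data known. Of the genes, all were accounted for; fold change, SE and adjusted p are given for those past the threshold in the first or second comparison, and for at most the 2 largest in each direction of the wider list. A gene of the wider list that this rule would name is not reported here. Where other genes are given a p, they were picked after their values were seen. Marker lists are given as counts, sums and genes at 0, and some single markers are named with their values.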

Additional observations from a re-analysis of the deposited data

How the results depend on the processing

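None of the genes called in a comparison, nor Idi1 from day 7 to day 21, changed direction under the 18 alternatives. For these genes, 499 values kept their side of the threshold, 91 were no longer past it and 4 (all Idi1 from day 7 to day 21) passed it, at -1.74 with limma voom, -1.15 with quantile normalization, -1.38 when rescaled by the median of ratios and -1.07 with a filter of 5 TPM. From day 7 to day 21 in 4F, voom called 5 of the 31 genes higher and 8 lower in place of 10 and 4, and leaving out 1 library gave 9 to 11 higher and 2 to 5 lower, the 2 without replicate 2 of 4F at day 7. Between 8F and 4F at day 21, the 1822 genes called of all genes became 994 without the eBayes trend, 3572 with array weights and 86 to 2231 when 1 library was left out, with 86 and 98 without replicate 1 or 2 of 8F. Of the 31 genes, those higher in 8F numbered 0 without the trend, 2 with array weights, 4 with voom, 0 with only the groups compared and 0 to 1 with 1 library left out, and those lower 0 without the trend, 2 with array weights and 0 to 1 with 1 library left out. Between 8F at day 21 and 4F at day 7, leaving out 1 library gave 3642 to 8377 genes called in place of 8103, with 3 to 12 of the 31 genes higher and 2 to 4 lower. The cause of these shifts was not tested. Each left-out fit also held fewer libraries, and the part of that was not separated from the values of the library left out.

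No pairing by replicate number was seen: the deviations of same-numbered libraries from their group means correlated between -0.037 and 0.011. In a group of 2 libraries the deviations are exact opposites, so this check cannot exclude a shared origin. With the replicate block, the genes called between 8F and 4F fell to 164, with 0 of the 31 higher and 0 lower. From day 7 to day 21 in 4F the block gave 7 of the 31 higher and 2 lower, beside 4641 and 2600 over all genes. Mvk and Ebp were each at 0 in 1 library of 4F at day 21. In other libraries of that group they reached 6.94 and 3.49 TPM, where 3 reads were worth 0.239 and 0.299 TPM. The cause of this spread was not tested.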
